A study of Caenorhabditis elegans with 18 samples.

Results

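The right arm of Caenorhabditis elegans chromosome IV was described here through the 500-bp windows that start between positions 12970001 and 16993000, which is the right high-recombination arm without its outer 500 kb. It spans IV:12970001-16993000 (4.02 Mb, coordinates of the deposited table) and holds 8046 of the 200538 windows of the genome, or 4.01%. The rule uses position and no measured value, though the region was picked with earlier results of these data known. For tests they were grouped into 402 bins of 10 kb, and the 6 windows beyond the last whole bin entered only the mean over the arm. In the table chromosome IV ends at position 17493785, which is not its end in ce10, the build named in the submitters' processing notes. No gene was therefore placed in a window and no sequence is shown.

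The study measured contact of chromatin with LEM-2 by chromatin immunoprecipitation and sequencing (ChIP-seq) in early embryos, collected before the bean stage from cultures grown at 20 °C for 60 to 65 h from synchronised L1 larvae, a time that varied by strain. The strains were the wild type N2 (Bristol), met-2(n4256) and set-25(n5021), both alleles lying on chromosome III. Each strain had 3 immunoprecipitated (IP) and 3 input libraries, 18 in all, from independent biological replicates, named here by the letters a to c of their columns. Chromatin came from whole embryos, so contact in fewer nuclei and weaker contact in every nucleus cannot be told apart.

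LEM-2 is a LEM-domain protein of the inner nuclear membrane, and the chromatin it precipitates lies at the nuclear periphery. In worm embryos the distal arms of the autosomes, which are rich in repeats and in methylated H3K9, touch the membrane, and the gene-dense centres lie inside. MET-2, the homologue of SETDB1, places mono- and dimethylation on H3K9, SET-25 places trimethylation, and the chromodomain protein CEC-4 tethers chromatin with methylated H3K9 to the membrane. Chromosome IV is the chromosome of the piRNAs, also called 21U-RNAs, the small RNAs with which the Argonaute PRG-1 recognises foreign transcripts in the germ line. Of the 15363 piRNA genes in the RefSeq table of assembly WBcel235, 14714 (95.8%) lie on chromosome IV, where they lie in broad clusters, one of them on the right arm. The comparison of strains asks how much of the contact with the membrane depends on each methyltransferase.

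The strain labels hold only in part. Of the windows that some inputs lack, 3 on chromosome III were missing in all set-25 inputs, and 2 others on III were missing in all met-2 inputs and also in inputs b and c labelled set-25. A further 3 windows on V were missing in N2 input a and in inputs b and c labelled set-25. None of these windows lies in the arm. The groups are called N2, met-2 and libraries labelled set-25 below, with column a labelled set-25 given apart where a result rests on columns b and c. Depth ran from 8.73 M reads in met-2 IP b to 64.45 M in set-25 input a, and the median 10-kb bin of the arm held 1044.5 reads in met-2 IP b and 6009.5 in N2 IP a.

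In N2 embryos the right arm of IV was enriched for LEM-2 over most of its length. Enrichment here means the log2 value of an IP library less the average of its strain's 3 input libraries. That average is common to the columns of a strain, which are therefore not fully independent. The mean over the arm came to 0.63, 0.51 and 0.41 for N2 columns a, b and c, or 0.52 ± 0.11 (SD, n = 3). As an average of log2 values over windows this is a ratio of 1.43 to input. From reads summed over the arm the N2 mean was 0.60 on the log2 scale. All 3 columns lay above input, and column a was highest. Counted in reads, the arm took 5.62% ± 0.44 of the IP reads of N2 and 3.70% ± 0.22 of its input reads (SD, n = 3). By limma over all 10029 bins of the genome, with a Benjamini-Hochberg adjusted p under 0.05, 311 of the 402 bins of the arm were enriched against 32.3% of all bins, and 50 were depleted against 53.5%. Called either way were 85.8% of all bins. On values centred on the median of each library, 347 bins of the arm were enriched, against 43.2% of all bins.

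The median bin of the arm stood at 0.66 in N2, the middle range of bins ran from 0.22 to 0.91, and the extremes were -1.38 and 1.44. Runs of at least 3 neighbouring enriched bins, called domains here, numbered 26 and covered 304 of the 402 bins, with a median length of 70 kb. The longest domains spanned 420 kb at IV:15050001-15470000, 370 kb at 15650001-16020000 and 350 kb at 16030001-16380000, with mean N2 levels of 0.87, 0.80 and 0.94. Runs of at least 3 depleted bins, called gaps, numbered 6 and covered 33 bins. The longest gap lay next to the centre, at 12990001-13130000, and stood at -0.57 ± 0.10 in N2 (SD, n = 3). The other gaps were 30 to 50 kb long and lay farther out, at 14060001-14090000, 14760001-14810000, 15010001-15050000, 16380001-16420000 and 16480001-16510000, with mean N2 levels between -0.56 and -0.86.

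**Figure D1:**
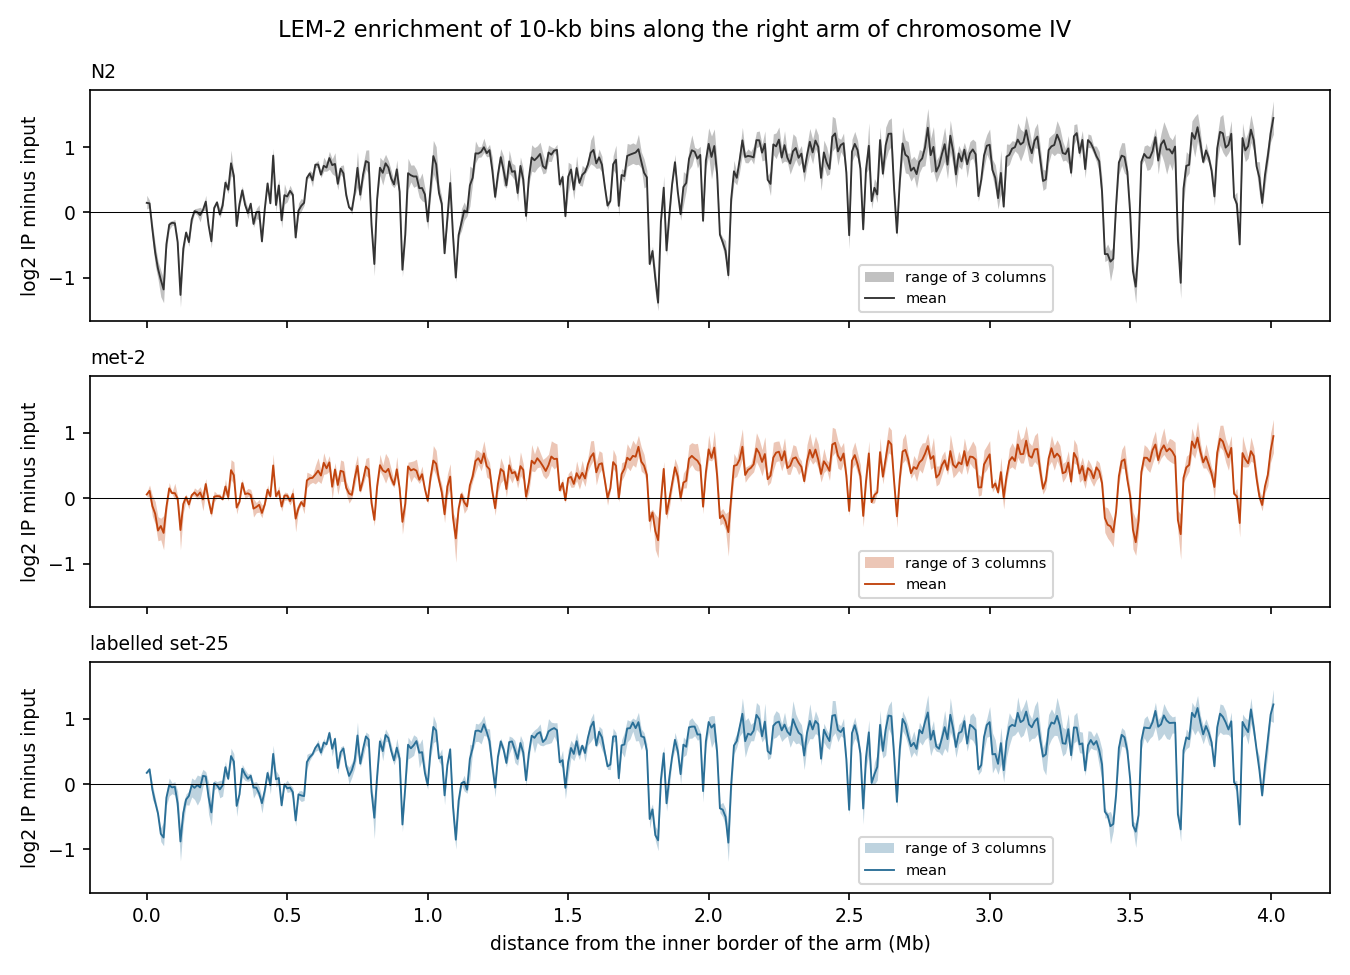
LEM-2 enrichment (log2 IP minus input) of the 402 bins of 10 kb against their distance from the inner border of the arm in Mb, for N2, met-2 and libraries labelled set-25. Lines are means and bands the range of 3 columns. Long enriched stretches with narrow dips are seen in every panel, with a range of -1.38 to 1.44 in N2 and of -0.67 to 0.95 in met-2.

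The highest bin was IV:16980001-16990000, the last whole bin of the arm, with 1.71, 1.43 and 1.20 in N2 columns a, b and c. It had 0.95, 0.70 and 1.21 in met-2 and 1.45, 1.26 and 0.94 in libraries labelled set-25, so that every IP library of the study was well above input there. The next, all at least 100 kb apart, began at 16710001, 15750001, 16100001 and 16280001, with N2 means of 1.30, 1.30, 1.26 and 1.21. The lowest bin was IV:14790001-14800000, in a gap, with -1.50, -1.33 and -1.30 in N2. It was followed by bins that began at 13090001, 16490001, 16650001 and 14070001, with N2 means of -1.26, -1.13, -1.08 and -0.99. The bin at 16650001 therefore lay within 70 kb of the bin at 16710001, 1 of the highest, across a domain edge. These 10 bins were chosen by their N2 values, which are given as a description. The correlation across arm bins with the bin 10 kb away was 0.72 in N2 (Pearson, n = 401 pairs that share libraries), and with the bin 50 kb away 0.22 (n = 397).

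In 4 segments of about 1 Mb, the N2 means were 0.16 ± 0.04, 0.47 ± 0.11, 0.75 ± 0.15 and 0.71 ± 0.14 from the inner to the outer segment (SD, n = 3). The third segment from the centre lay slightly above the outer one in every column, by 0.03 to 0.05 in N2. At the border itself the profile went through a step. The 200 kb before the border stood at -0.01 ± 0.02 in N2, the first 200 kb of the arm at -0.39 ± 0.08, where the longest gap lies, and the next steps at 0.12 ± 0.03, 0.21 ± 0.05 and 0.56 ± 0.09 (SD, n = 3). The steps after these stood at 0.30 and 0.19, and the next at 0.64, so the level did not climb evenly. Outside the border, N2 was at -0.92 ± 0.16 in the farthest of the 5 steps of the centre shown (SD, n = 3).

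**Figure D2:**
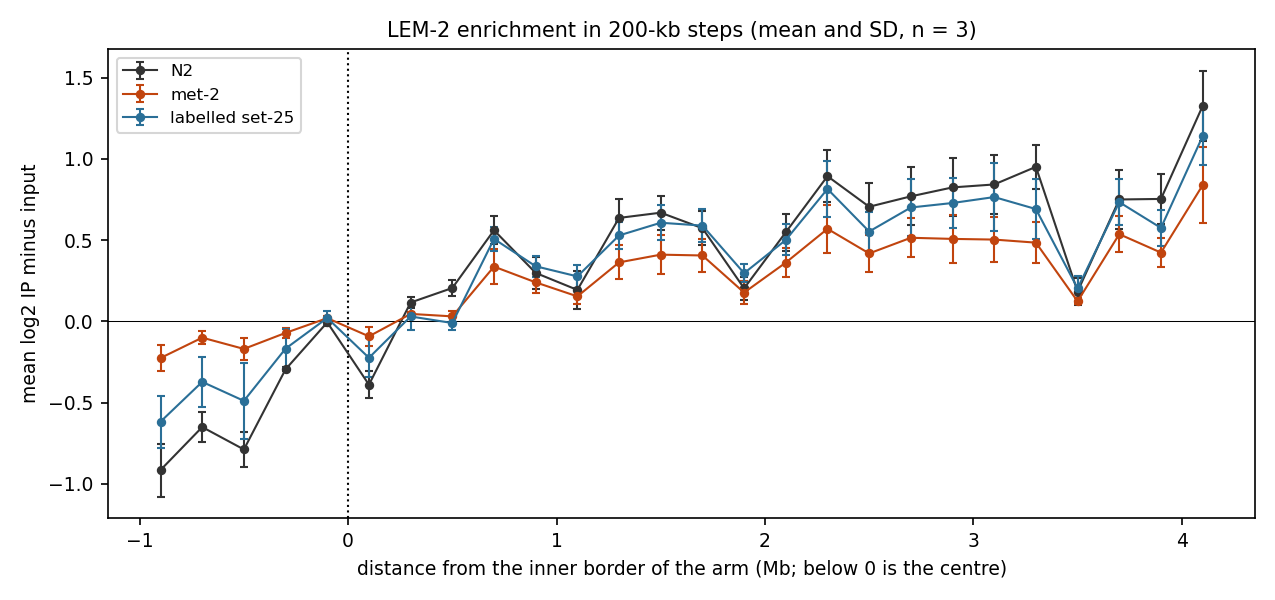
Mean LEM-2 enrichment (log2 IP minus input, mean and SD, n = 3) in steps of 200 kb against the distance from the inner border of the arm in Mb, from 1 Mb inside the centre to the end of the arm; the last point holds only 2 bins. In N2 the first step of the arm is at -0.39 and the fourth at 0.56, and met-2 lies nearer 0 than N2 in all steps but the one just before the border.

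In met-2 embryos the arm was still enriched. The mean over the arm came to 0.26, 0.30 and 0.42 for met-2 columns a, b and c, or 0.33 ± 0.08 (SD, n = 3), against 0.52 in N2. Column c of met-2 lay above column c of N2, so the groups overlapped, and the difference of -0.19 had an exact two-sided permutation p of 0.2 (0.3 adjusted over the 3 strain pairs), where 3 against 3 libraries cannot go below 0.1. With median-centred values, with medians over bins, with the ratio of summed reads, or without met-2 column c, N2 column a or N2 column c, the groups no longer overlapped, with differences between -0.19 and -0.40. They still overlapped with the input of the same letter (exact permutation p = 0.4), without met-2 column b (-0.16) and without met-2 column a, where the difference shrank to -0.11. Of the 402 bins, 271 were enriched over input in met-2, 270 of them also in N2, against 22.4% of all bins, and 35 were depleted, against 30.0%, with 52.3% of all bins called either way. On median-centred values 288 were enriched, against 28.1% of all bins. The count of 271 depended on column c: without met-2 column c only 137 bins of the arm were called enriched and 6 depleted. Calls over all 10029 bins fell as well, from 2243 to 1142 enriched and from 3007 to 692 depleted.

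The libraries of met-2 differed among themselves on this arm. With the input of the same column letter in place of the strain mean, the arm mean was 0.17, 0.28 and 0.54 in met-2 columns a, b and c, while N2 had 0.53, 0.52 and 0.51. Columns a and b of met-2 were then far below every N2 column, and column c was not. The inputs themselves differed by letter in every strain. Input a of N2, met-2 and set-25 had the arm at -0.01, 0.01 and -0.05 on the log2 scale relative to the mean of all bins, input b at -0.12, -0.06 and -0.09, and input c at -0.19, -0.19 and -0.17. Mean input over the arm differed between met-2 and N2 by 0.01. Across the 402 bins, the input difference of met-2 minus N2 had a Pearson correlation of -0.72 with the enrichment difference. For libraries labelled set-25 minus N2 it was -0.50. Input enters both measures, so this is a description.

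By limma, 106 bins of the arm fell and 23 rose in met-2 against N2. Of all bins 68.0% were called, 22.3% lower and 45.6% higher, so the share of lower bins in the arm, 26.4%, was near that of the genome, and the share of higher bins, 5.72%, was well under it. The median difference from N2 was 0.20 over all bins and -0.25 over the bins of the arm. On values centred on the median of each library the split in the arm was 264 lower and 5 higher, against 34.2% lower and 29.8% higher of all bins. The number called also depended on single libraries. In the arm it was 55 without met-2 column a, 63 without met-2 column b and 260 without met-2 column c, against 129 with all. Over all bins it was 3725 higher and 1874 lower without met-2 column a, and 4034 and 1881 without column b. Without column c it was 4466 and 2247, against 4577 and 2239 with all.

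All 23 bins that rose were depleted in N2, and 104 of the 106 that fell were enriched in N2, of which 89 were still called enriched in met-2. Over all bins these shares were 97.2% of those that rose and 95.6% of those that fell, so the arm was close to the genome, and the N2 libraries enter both the N2 call and the difference. Called directions were never opposite in N2 and met-2 (0 of 402 bins). Across the 402 bins the strain means of met-2 and N2 had a Pearson correlation of 0.96 and a Spearman correlation of 0.95, with a slope of 0.59. This is a description, since the bins are neighbours and share their mappability and base composition. The SD over arm bins was 0.25, 0.32 and 0.45 in met-2 columns a, b and c and 0.63, 0.53 and 0.48 in those of N2, with no overlap. The difference was -0.20 with an exact permutation p of 0.1, the smallest possible (0.3 adjusted). With the input of the same letter met-2 column c had 0.57 and the groups overlapped (exact permutation p = 0.4), as they did without met-2 column a.

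**Figure D3:**
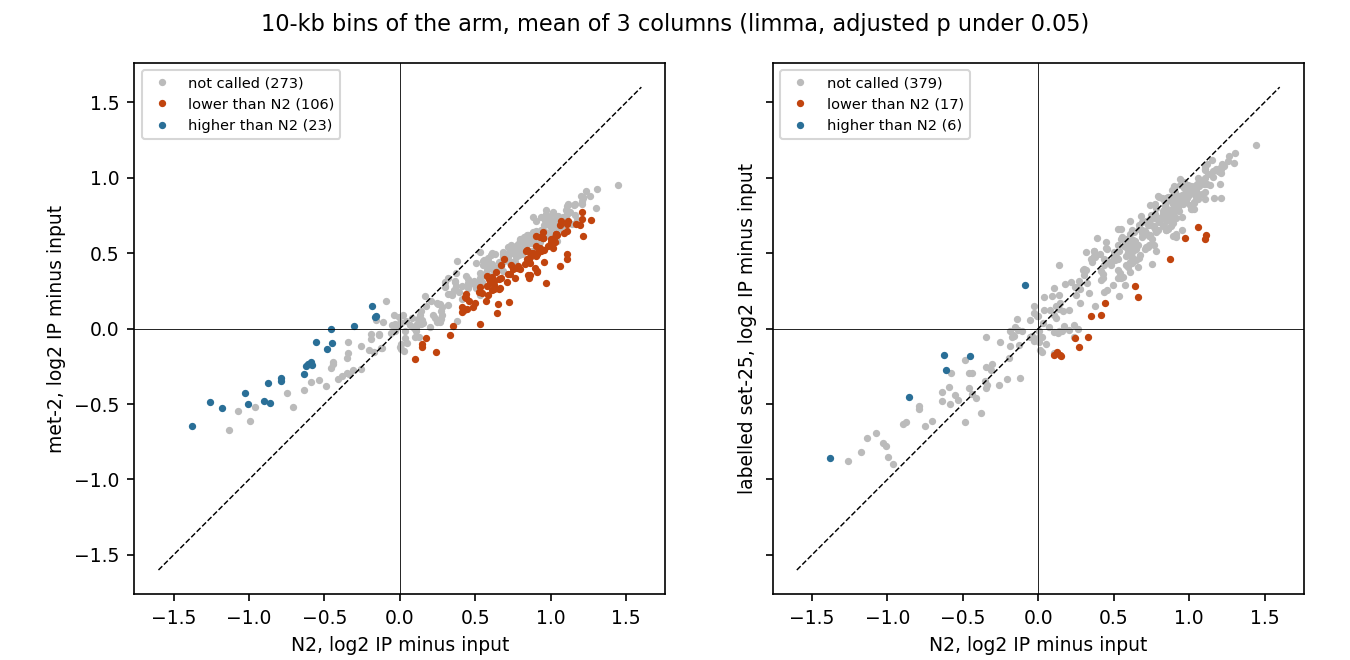
Mean log2 IP minus input of each 10-kb bin of the arm in met-2 (left) and in libraries labelled set-25 (right) against N2; the dashed line marks equal values and colours mark bins called by limma at an adjusted p under 0.05. In met-2, 106 bins lie lower and 23 higher than in N2, and for set-25 the numbers are 17 and 6.

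The same rule gave 29 domains in met-2, which covered 257 bins, all of them inside N2 domains, so the shared bins were 84.5% of the N2 bins and 100% of the met-2 bins. The domain at IV:15050001-15470000 had 0.87 ± 0.15 in N2 and, for met-2, 0.56 ± 0.15 (SD, n = 3), and was still called over 410 kb. The first 3 N2 domains next to the centre, at 13250001-13290000, 13400001-13430000 and 13460001-13500000, with N2 levels of 0.53, 0.48 and 0.28, had no domain in met-2, where they stood at 0.24, 0.22 and 0.03. Of the 33 bins in N2 gaps, 19 were in gaps in met-2, which are 57.6% of the N2 bins, and 1 of the 20 met-2 bins lay outside N2 gaps. The gap at 14760001-14810000 had -0.78 ± 0.07 in N2 and, for met-2, -0.35 ± 0.15 (SD, n = 3). These runs rested on met-2 column c: without it met-2 had 20 domains over 92 bins, which were 30.3% of the N2 bins, and 0 gaps. Without met-2 column b its domains covered 230 bins and its gaps 14. In every strain domains and gaps were drawn on this arm only, so the shared parts cannot be set against those of other arms.

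In the pair of 200-kb steps from 13170001 to 13570000, met-2 stood at 0.05 ± 0.01 and 0.03 ± 0.03 (SD, n = 3), against 0.12 and 0.21 in N2. In the 17 whole steps from 13570001 on, met-2 stood between 0.12 and 0.57, which are 50.9% to 87.2% of the N2 level. This division was drawn after the values were seen and was not tested. By segments of about 1 Mb, met-2 differed from N2 by -0.04, -0.16, -0.28 and -0.28 from the inner to the outer one. Bins that fell numbered 18, 21, 26 and 41 in these segments, and bins that rose 15, 6, 0 and 2.

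The bin at IV:16340001-16350000 had 1.02, 0.90 and 0.996 in N2 and 0.18, 0.34 and 0.40 in met-2, with no overlap. It fell by 0.67 (SE 0.09, adjusted p = 0.000174 in limma) and stayed above input in all 3 met-2 columns. At 13630001-13640000 the N2 values of 0.82, 0.77 and 0.59 stood against 0.26, -0.01 and 0.29 in met-2 (change -0.55, SE 0.13, adjusted p = 0.00181 in limma). Falls of -0.55, -0.54 and -0.53 followed for the bins that begin at 16900001, 14200001 and 16230001. The largest rise was in the border gap, at IV:13090001-13100000, from -1.45, -1.23 and -1.10 in N2 to -0.28, -0.38 and -0.79 in met-2 (change 0.78, SE 0.20, adjusted p = 0.00322 in limma). The lowest bin of the arm, at 14790001, rose by 0.74 and those at 13880001, 13780001 and 14030001 by 0.52, 0.46 and 0.38. All 5 of the named rises left the bin below input on average in met-2. Of these 10 bins, 3 no longer passed on median-centred values and 3 without met-2 column a.

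Arm minus centre of chromosome IV was 1.26, 0.98 and 0.91 in N2 columns a, b and c and 0.33, 0.45 and 0.59 in those of met-2. The groups did not overlap, and the difference of -0.59 had an exact permutation p of 0.1, the smallest possible (0.2 adjusted). It lay between -0.49 and -0.71 in all alternatives. The centre itself had -0.53 ± 0.09 in N2 and, for met-2, -0.13 ± 0.06 (SD, n = 3), a difference of 0.40 beside the -0.19 of the arm.

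Among the 10 autosomal arms, the right arm of IV ranked 3 in N2 and 1 in both mutants. In N2, the right arm of V, at 0.59 ± 0.11, lay above it in all 3 columns, by 0.03 to 0.08. The left arm of III, at 0.52 ± 0.09, lay above it in column c and below it in columns a and b. In met-2, the next highest was the right arm of II, at 0.19 ± 0.04, and the lowest IV column, at 0.26, lay above every column of that arm, of which the highest was 0.22. The left arm of IV had 0.37 ± 0.10 in N2 and, for met-2, 0.04 ± 0.02 (SD, n = 3). On average the other 9 autosomal arms had 0.38 ± 0.09 in N2 and, for met-2, 0.08 ± 0.02 (SD, n = 3), which is 22.2% of the N2 level on the log2 scale, against 63.3% for the right arm of IV. The left arm of V, the least enriched arm in N2 at 0.15 ± 0.01, had 66.3%, so a high remaining share was not found on IV alone. In met-2 against N2, 54.1% of the 3280 bins of the other autosomal arms fell, with 24.1% to 69.4% by arm, and 26.4% of the bins of the right arm of IV did.

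**Figure D4:**
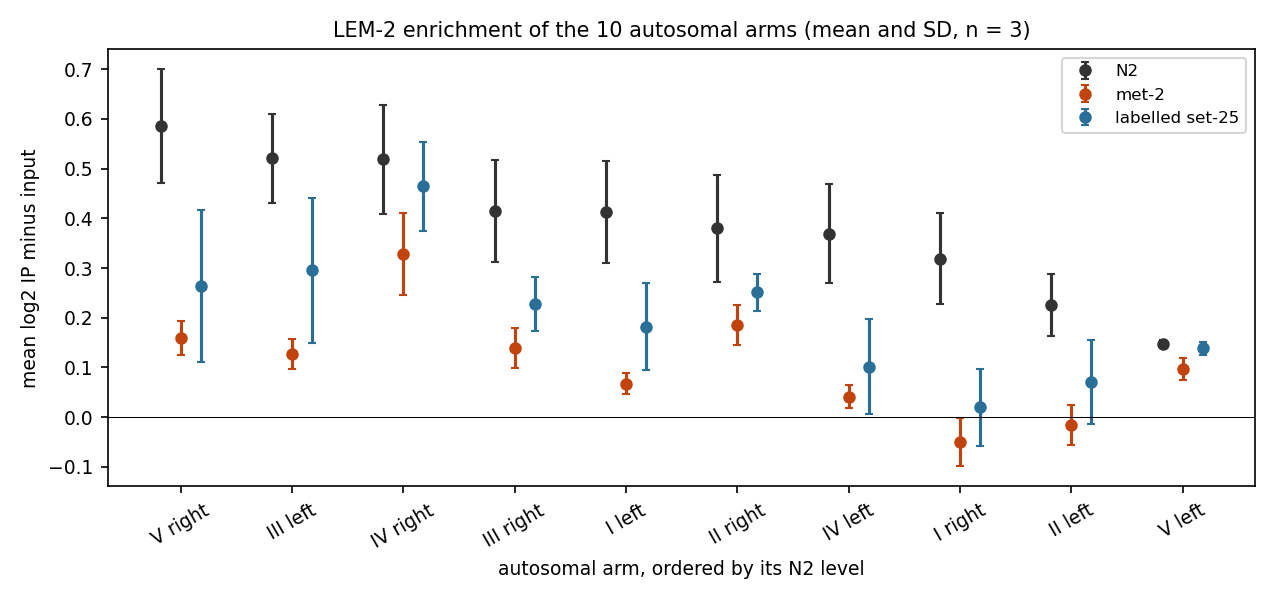
Mean LEM-2 enrichment (log2 IP minus input, mean and SD, n = 3) of the 10 autosomal arms, ordered by their N2 level, in N2, met-2 and libraries labelled set-25. The right arm of IV, at 0.52 in N2, has 0.33 for met-2 and 0.46 for libraries labelled set-25, the highest arm in both.

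The test of that difference was the arm minus the mean of the other 9 autosomal arms within each library. It was 0.16, 0.17 and 0.10 in N2 columns a, b and c and 0.20, 0.19 and 0.34 in those of met-2. The groups did not overlap, with a difference of 0.10 and an exact permutation p of 0.1, the smallest possible (0.15 adjusted). This result rested on single libraries. Without met-2 column c, IP and input, the difference turned to -0.02, and without N2 column a it was 0.05 with overlap. With the input of the same letter the groups also overlapped (exact permutation p = 0.7), as they did with medians over bins (0.10) and without the 500 kb next to the centre (0.07). The inputs differed by letter as well, by a measure relative to the mean of all bins. The arm was at -0.19 in input c and at 0.01 in input a of met-2, and at -0.19 and -0.01 in those of N2. The part of the inputs in the result was not tested.

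**Figure D5:**
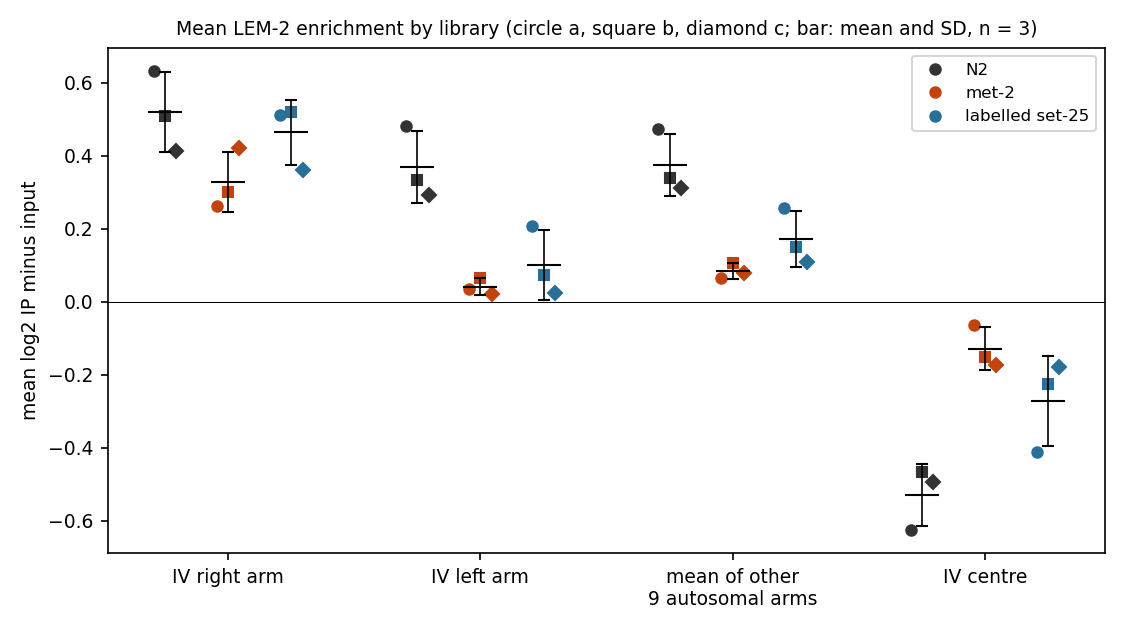
Mean log2 IP minus input of each IP library over the right arm of IV, the left arm of IV, the other 9 autosomal arms and the centre of IV; circles, squares and diamonds are columns a, b and c, and bars the mean and SD (n = 3). On the right arm of IV met-2 column c, at 0.42, lies just above N2 column c, at 0.41, while on the left arm of IV every met-2 library lies below every N2 library.

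In libraries labelled set-25 the mean over the arm came to 0.51, 0.52 and 0.36 for the 3 columns a, b and c, or 0.46 ± 0.09 (SD, n = 3), which is 89.4% of the N2 level. The groups overlapped, and the difference of -0.05 had an exact permutation p of 0.6 (0.6 adjusted). On median-centred values the levels were 0.59 and 0.80 in N2, a difference of -0.21, also with overlap (exact permutation p = 0.2). Column a alone, with its own input, stood at 0.46 and differed by -0.06. Over input, 297 bins were enriched and 48 depleted, against 29.0% and 43.7% of all bins and 72.7% called either way. On median-centred values 316 were enriched, against 37.4% of all bins. Their 23 domains covered 284 bins, and the 281 shared with N2 were 92.4% of the N2 bins and 98.9% of the bins of set-25. On the other 9 autosomal arms the level was 0.17 ± 0.08 (SD, n = 3), or 46.0% of N2. By column it was 0.26, 0.15 and 0.11 in a, b and c there, against 0.38 on average in N2. Columns b and c thus lay farther below N2 than column a.

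By limma, 17 bins fell and 6 rose in libraries labelled set-25 against N2, while 30.4% of all bins were called, 10.6% lower and 19.8% higher. These are 4.23% and 1.49% of the bins of the arm, and in the other 9 autosomal arms 26.6% fell. On median-centred values 45 bins were lower and 0 higher, against 16.4% and 3.02% of all bins. The calls rest on few libraries: they numbered 0 without column b labelled set-25, 1 without column c, 0 without columns b and c, 0 without N2 column a, 13 and 15 without N2 columns b and c, 13 without met-2 column b, whose spread the model pools with the rest, and 38 without column a labelled set-25. Over all 10029 bins the calls also dropped, from 1988 higher and 1059 lower to 22 and 170 without column b labelled set-25. They were 28 and 200 without column c labelled set-25, and 47 and 221 without N2 column a. Without column a labelled set-25 they rose to 3903 and 1689. Of the 17 bins of the arm that fell, 10 lay in the inner segment of about 1 Mb and 6 in the outer one.

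The bin at IV:16320001-16330000 had 1.20, 1.12 and 0.997 in N2 and 0.82, 0.46 and 0.50 in columns a, b and c labelled set-25 (change -0.52, SE 0.12, adjusted p = 0.0112 in limma). At 13530001-13540000 the N2 values of 0.18, 0.11 and 0.16 turned to -0.25, -0.16 and -0.14, column a included (change -0.33, SE 0.09, adjusted p = 0.0215 in limma). The bins that begin at 13420001, 14200001 and 16940001 fell by 0.41, 0.36 and 0.32. Rises were found at 14790001, 14030001, 13010001 and 13120001, of 0.52, 0.45, 0.41 and 0.27, all in bins depleted in N2. The bin at 16940001 was not called in N2. None of the 9 passed without column b or c labelled set-25 or without N2 column a (0 of 9 in each). A gap that the rule gave in neither N2 nor met-2 stood at 13500001-13540000, with means of -0.03 for N2 and -0.16 for met-2, and -0.27 ± 0.07 for libraries labelled set-25 (SD, n = 3). Both mutants were lower than N2 in 13 bins of the arm and higher in 5, but these comparisons share the N2 libraries. The same count was not made over all bins, so these numbers are a description of the arm.

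For columns a, b and c labelled set-25, arm minus centre of IV came to 0.92, 0.75 and 0.54. Column a lay just above the lowest N2 column, and the difference from N2 was -0.31 (exact permutation p = 0.2, 0.2 adjusted). With the input of the same letter the groups did not overlap (exact permutation p = 0.1). The difference was -0.16 without columns b and c labelled set-25, and -0.09 without these and N2 column a. The arm minus the other 9 autosomal arms was 0.25, 0.37 and 0.25, above all 3 N2 columns, with a difference of 0.15 (exact permutation p = 0.1, the smallest possible, and 0.15 adjusted). With the input of the same letter the groups overlapped (exact permutation p = 0.3). It was 0.04 without columns b and c, the columns that lack the interval missing in met-2, and -0.02 without these and N2 column a.

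Between met-2 and libraries labelled set-25 no bin of the arm passed in limma (0 of 402, with 38 at an unadjusted p under 0.05), against 0.419% of all bins, 0.389% higher and 0.0299% lower. By voom on recovered reads 3 passed, 1 higher and 2 lower in met-2, against 940 higher and 163 lower of all 10029 bins. The arm mean of met-2 minus that of libraries labelled set-25 was -0.14, with overlap (exact permutation p = 0.2, 0.3 adjusted). It was -0.06 without met-2 column a and -0.24, with no overlap, without met-2 column c. Without columns b and c labelled set-25, 8 bins passed, 2 higher and 6 lower in met-2, against 14.4% of all bins, but 1 library then stands for the strain and is assumed to vary like the others. The profile of met-2 followed that of libraries labelled set-25 with a Pearson correlation of 0.98 across the 402 bins and a slope of 0.71, given as a description.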

How the data were processed

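ChIP-seq of LEM-2 and input chromatin was available for 18 libraries. Per the values of the deposited table, the authors gave each 500-bp window as log2 of its scaled reads plus 2, with every library scaled to 35.17 M reads, so all values are relative to the library. Whole reads were recovered for 100% of values within 0.01. The sources used here name no aligner, counting step or filter, and ce10 is the build per the submitters' processing notes. Columns carry letters and no replicate numbers, and were used as unnumbered replicates of their group. Same-letter IP and input deviated together in only some pairs (r = -0.48 to 0.31), so letters were not used to pair. Replicate libraries differed by more than counting noise (chi-square per bin 6.71 to 86.5 in 18 pairs).

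Enrichment was IP minus the mean input of the strain. Window means in 10029 bins of 10 kb were fitted with limma 3.58.1 in R 4.3.3 (trend, 6 group means, 12 residual degrees of freedom), with Benjamini-Hochberg adjustment over all bins and a threshold of 0.05. Arm values were compared by exact two-sided permutation over libraries. Named bins were the 5 highest and 5 lowest in N2 and, for each mutant against N2, the 5 largest rises and falls past the threshold without overlap (up to 3 each way between the mutants, where none passed), at most 1 per 100 kb. Only 4 rises in libraries labelled set-25 met this rule. Borders of the other arms, and so of the centres, were written by hand from the published recombination map. They are in coordinates of another build than the deposited table and were used without conversion. Region, borders, segments and rules were chosen with earlier results of these data known. Tables were handled in Python 3.11.15 (numpy 2.4.6, pandas 2.3.3), permutation p-values adjusted over the strain pairs with scipy 1.17.1, and plots drawn with matplotlib 3.10.9. Alternatives were the input of the same letter, median centring, a minimum of 50 mean input reads (17 windows of the arm lost), bins of 5 and 20 kb, libraries left out, medians, summed reads, a border moved by 500 kb, voom and limma without a trend.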

Additional observations from a re-analysis of the deposited data

Results flagged for a closer look

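In 6 bins of 10 kb the 3 N2 columns lay on one side of input and the 3 met-2 columns on the other, and the difference passed in limma. Those that begin at IV:13050001 and 13060001, in the border gap, were higher in met-2 by 0.34 and 0.24. Those at 13530001, 14210001, 15550001 and 16420001 were lower by -0.27, -0.39, -0.23 and -0.31. In libraries labelled set-25 the same held for 7 bins, of which 4 lay between 13480001 and 13540000. The bins at 13300001, 13480001, 13490001, 13520001, 13530001 and 16940001 were lower than N2 by -0.28, -0.38, -0.39, -0.28, -0.33 and -0.32, and the bin at 14040001 was higher by 0.38. The bin at 13530001 stands in both lists, which share the N2 libraries. How many of all bins met the same rule was not counted, so both lists only describe the arm.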

How the results depend on the processing

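The mean over the arm stayed above input in all 3 strains in every alternative run. On median-centred values it was 0.80 for N2 and 0.59 for libraries labelled set-25, and with medians over bins 0.67 and 0.58. Leaving out single libraries gave 0.225 to 0.406 for met-2. The arm minus the other arms turned direction for met-2 against N2 without met-2 column c, with a range over left-out libraries of -0.0231 to 0.185. For libraries labelled set-25 against N2 it was -0.0172 once their columns b and c and N2 column a were left out. For met-2 against libraries labelled set-25 the range was -0.171 to 0.0373, and it was 0.0661 without columns b and c, whether or not N2 column a was kept. The cause was not tested.

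Calls over all bins changed with the library left out, and so did those in the arm. There the count of called bins was 143 to 309 for met-2 over input and 55 to 260 for met-2 against N2. It was 0 to 38 for libraries labelled set-25 against N2 and 0 to 3 between the mutants. On median-centred values it was 269 for met-2 against N2 and 45 for libraries labelled set-25. For the latter it was 27 of the 804 bins of 5 kb, against 1723 higher and 1364 lower of all 20055. Of the 200 bins of 20 kb it was 18, against 1495 higher and 687 lower of all 5015. The arm mean of libraries labelled set-25 differed from N2 by -0.06 without their columns b and c, whether or not N2 column a was kept. Between the mutants it was 8 without columns b and c, 24 without N2 column a as well, and 3 by voom. With same-letter input as a replicate block, 22 bins were higher and 114 lower in met-2 than N2, against 4451 and 2283 of all bins. In libraries labelled set-25 the numbers were 2 and 16, against 1523 and 1087 of all bins. The column letter as a replicate block across strains was an alternative chosen after seeing the data. It gave 25 and 135 for met-2, against 4688 and 2411 of all bins. For libraries labelled set-25 it gave 6 and 19, against 2551 and 1302 of all bins. With 3 libraries a group and 1044.5 reads in the median bin of met-2 IP b, small changes of single bins were not detectable.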
